A study of Mus musculus with 4 samples.

Results

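These 472 cells were taken from 14982 kept barcodes of single-cell RNA sequencing of mouse gonadal white adipose tissue, by a rule meant to find monocytes. A kept barcode had over 1000 and under 7000 detected genes and under 8% of its UMIs (unique molecular identifiers, 1 per captured RNA molecule) from mitochondrial genes. A cell was chosen when Ms4a4c, Chil3, Ifitm6 and Adgre4 together gave at least 4 UMIs, with at least 2 of these 4 genes detected and at least 1 UMI of Ptprc, the gene of the leukocyte antigen CD45. Cells with more than 1 UMI of Gpnmb, Cd79a or Pdgfra, or with any UMI of Cd3e, were left out, which limits macrophages rich in Gpnmb, B cells, stromal progenitors and T cells. The chosen cells were then divided into Ccr2+ cells (at least 1 Ccr2 UMI) and Ccr2- Adgre4+ cells (no Ccr2 UMI, at least 1 Adgre4 UMI).

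The study asked how cells with high p16 expression differ from other cells of aged adipose tissue. The mice were 18-month-old male p16-CreERT2/R26-LSL-tdTomato animals, in which tamoxifen lets a Cre recombinase under p16 control switch on the red reporter tdTomato for good, so that Tom+ means p16 activity around the time of tamoxifen and not necessarily at sorting. Both the Tom+ and the Tom- cells carried these alleles and came from tamoxifen-treated animals of the same age. Stromal vascular cells were sorted by CD45 and tdTomato into 4 groups with 1 library each, in the order CD45- Tom+, CD45- Tom-, then CD45+ Tom+ and last CD45+ Tom-, and every list of 4 values below follows this order. The protocol text of the labels names CD45- Tom- again where CD45+ Tom- would be due, while the title and group of the fourth library give CD45+ Tom-, which was used here. How many animals were pooled in a library is not given in the sources used here.

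Monocytes are blood leukocytes made in the bone marrow. In mice, classical monocytes carry high Ly6C and the chemokine receptor Ccr2 and enter tissues, where they can become macrophages or antigen-presenting cells, while non-classical monocytes carry low Ly6C, depend on the nuclear receptor Nr4a1, express Cx3cr1 and patrol the vessel wall. In adipose tissue, Ccr2-dependent entry of monocytes is a known source of macrophages.

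The libraries held 64083756 to 139397501 UMIs over 3429 to 11255 deposited barcodes, and 1981 to 4818 barcodes were kept. The CD45 labels did not separate leukocytes: stromal progenitors (at least 2 Pdgfra UMIs, no Ptprc UMI) made up 7.45%, 40.5%, 7.98% and 36.7% of kept barcodes, and B cells (at least 3 Cd79a UMIs and a Ms4a1 UMI) 22.3%, 5.97%, 21.96% and 7.62%. The libraries labelled CD45- therefore held Ptprc-positive cells, and the Tom+ and Tom- libraries with the same CD45 label are called a pair below. The 2 Tom- libraries shared 4394 deposited barcode sequences but only 12 kept ones, and 1 of the 472 chosen cells had a barcode that was also kept in another library. Each sort has 1 library and so no replicate. Taken as 2 Tom+ and 2 Tom- libraries, an exact permutation test of a single value cannot go below p = 0.333 (two-sided), and a fit over all genes is given with the Tom contrast. Intervals below are exact 95% intervals that cover counting error only, not the spread between cells, libraries or animals.

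The CD45- Tom+ library gave 59 chosen cells, the CD45- Tom- library 179, the CD45+ Tom+ library 41 and the CD45+ Tom- library 193. Their median depth was 18838, 15128, 16303 and 16673 UMIs, with 4072, 3644, 3798 and 3820 genes and 3.23%, 3.41%, 3.02% and 3.57% mitochondrial UMIs, so the chosen cells were of similar quality in all 4 libraries. Their summed level of the 4 rule genes had a median of 12 UMIs and a highest value of 173. At the edge of the rule, 33 chosen cells had exactly 4 UMIs and 59 cells with 3 UMIs that met every other condition stayed outside. The score and detection conditions alone were met by 698 cells, of which the Ptprc condition and the limits on other cell types removed 226, 103 of them through Gpnmb alone. They removed 62 of 121 cells in the CD45- Tom+ library, 54 of 233 in CD45- Tom-, 16 of 57 in CD45+ Tom+ and 94 of 287 in CD45+ Tom-, so the limits fell unequally on the libraries. Chil3 was detected in 344 of the 472 cells, Ifitm6 in 337, Adgre4 in 333 and Ms4a4c in 217.

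In UMIs per 1000000 summed over the chosen cells of a library (CPM), Chil3, a secreted chitinase-like protein (ENSMUSG00000040809; chromosome 3, 106147554 to 106167564, mm10), stood at 451, 637, 494 and 647. Adgre4, an adhesion G protein-coupled receptor of myeloid cells (ENSMUSG00000032915; chromosome 17, 55749984 to 55853662), stood at 141, 148, 98.7 and 137. Ccr2, the receptor for Ccl2 (ENSMUSG00000049103; chromosome 9, 124101950 to 124113557), stood at 429.9, 628, 667 and 679.9. The rule chose the cells on Chil3 and Adgre4, so these levels describe the choice. Ccr2 did not select cells, and it was lowest in the CD45- Tom+ library.

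Some monocyte and inflammatory genes that the rule did not use were present. Ly6c2, the Ly6C antigen of classical monocytes, stood at 107, 188, 218 and 263 CPM in the chosen cells, against 6.51 to 23.6 CPM in macrophages of the same libraries (at least 10 summed UMIs of C1qa, C1qb and C1qc, none of them chosen cells). Plac8, a small cysteine-rich protein of monocytes and other leukocytes, stood at 252, 633, 449 and 729 CPM, against 2.77 to 22.2 in macrophages. Il1b, the cytokine interleukin-1 beta, stood at 765, 1123, 976 and 1209.8 CPM, against 75.3 to 210.5 in macrophages. For these 3 genes the lowest of the 4 values in the chosen cells lay above the highest macrophage value. Plac8 and Il1b were among the 5 genes named because they led against macrophages. The others were Cd209a, a gene of the dendritic count below (47.2 to 88.7 against 0.473 to 3.68 CPM), Plbd1 (121 to 204 against 5.80 to 21.0) and Napsa (104 to 219 against 15.5 to 23.8). The general myeloid genes Lyz2, which encodes lysozyme, and Csf1r, the receptor for macrophage colony-stimulating factor, did not set the cells apart from macrophages: Lyz2 was at 7273 to 8694 CPM against 8613 to 10153, and Csf1r at 477 to 552 against 524 to 542.

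Against dendritic cells and neutrophils, Arg1, the arginine-degrading enzyme arginase 1, was among the leading genes. Arg1 stood at 2672, 3140.3, 3872 and 3021 CPM in the chosen cells, at 0 to 24.1 in dendritic cells and at 28.9 to 123 in neutrophils, and also above the 1284 to 2620.4 CPM of macrophages. Fn1, which encodes fibronectin, stood at 6804, 8714, 8755 and 8657 CPM, against 2134 to 5762 in macrophages and 50.8 to 801 in neutrophils. Thbs1, the matrix protein thrombospondin 1, stood at 778, 1294, 1134 and 1163 CPM, against 112 to 299 in macrophages and 2.86 to 24.98 in dendritic cells. The macrophage genes C1qa (523 to 1123 CPM against 8.95 to 40.0) and C1qc (421 to 913 against 6.21 to 37.2) also led against dendritic cells, which were limited to under 10 C1q UMIs. All of these cell types were chosen on their own transcripts, so the comparisons are descriptions.

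In part the data went against the monocyte label. The summed C1qa, C1qb and C1qc UMIs, complement genes of tissue macrophages, reached the macrophage threshold of 10 in 183 of the 472 cells (38.8%). Dendritic genes (Flt3, Xcr1, Clec9a, Cd209a and Ccr7, at least 2 UMIs) were found in 55 cells (11.7%) and neutrophil genes (Retnlg, Mmp9, Cxcr2 and Csf3r, at least 4 UMIs) in 28 (5.93%), and 250 cells (53.0%) met at least 1 of these conditions. Ly6c2 was detected in 44.1%, 31.8%, 46.3% and 38.9% of the chosen cells. The 24 macrophage genes together held 16856, 12373, 15866 and 12864 CPM. The defining T cell gene Cd3e was at 0 by the rule, Cd79a was at 2.23 to 6.95 CPM and Pdgfra at 0 to 5.30 CPM. The population is therefore called the rule-chosen cells below.

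The rule-chosen cells made up a smaller share of the Tom+ than of the Tom- libraries in both pairs. Their share of kept barcodes was 1.42% (1.09 to 1.83; 59 of 4145) in the CD45- Tom+ library and 4.43% (3.82 to 5.11; 179 of 4038) in the CD45- Tom- library. In the pair labelled CD45+ it was 2.07% (1.49 to 2.80; 41 of 1981) in Tom+ and 4.01% (3.47 to 4.60; 193 of 4818) in Tom-. The share was thus 3.11-fold lower in Tom+ in the pair labelled CD45- (log2 ratio -1.64, interval -2.09 to -1.21) and 1.94-fold lower in the pair labelled CD45+ (log2 ratio -0.95, -1.48 to -0.46). Without the Ptprc condition and the limits on other cell types, an alternative chosen after the data were seen, the shares were 2.92% and 5.77%, then 2.88% and 5.96%, or 1.98-fold lower in Tom+ in the pair labelled CD45- and 2.07-fold lower in the pair labelled CD45+. These intervals exclude equal shares on counting error, but the Tom sort and the library cannot be told apart.

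**Figure D1:**
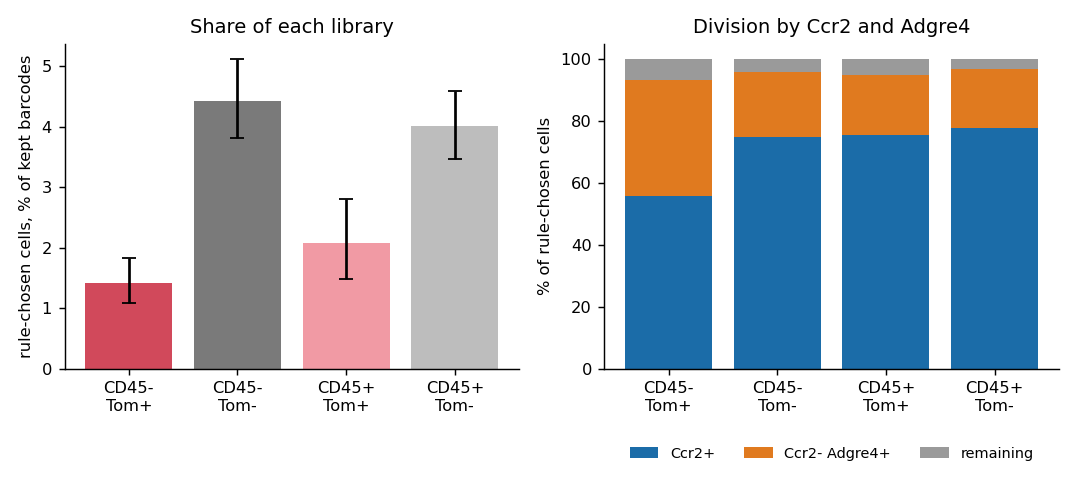
Left, rule-chosen cells as percent of the kept barcodes in each of the 4 libraries (bars, with 95% binomial intervals for counting error). Right, the percent of these cells that were Ccr2+, Ccr2- Adgre4+ or neither. Both Tom+ libraries sit below both Tom- libraries on the left (1.42% and 2.07% against 4.43% and 4.01%), and the Ccr2- Adgre4+ part is largest in the CD45- Tom+ library (37.3%).

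Macrophages went the other way, at 16.4% of kept barcodes in Tom+ and 9.81% in Tom- in the pair labelled CD45-, and at 17.3% and 10.8% in the pair labelled CD45+ (log2 ratios 0.74 and 0.69). Dendritic cells (0.458% and 1.39%, then 0.404% and 1.29%) and neutrophils (0.531% and 1.78%, then 1.16% and 2.35%) were lower in Tom+ like the rule-chosen cells. Since progenitors filled much of the Tom- libraries, the share was also taken among myeloid cells. Of the rule-chosen cells, macrophages, dendritic cells and neutrophils together, the rule-chosen cells were 7.56% in Tom+ and 25.5% in Tom- in the pair labelled CD45-, and 9.88% and 21.8% in the pair labelled CD45+. On this base, which contains the macrophages, the log2 ratios were -1.75 (-2.20 to -1.32) and -1.14 (-1.66 to -0.65). With macrophages left out of the base, the share was 59% in Tom+ and 58.3% in Tom- in the pair labelled CD45-, and 56.9% and 52.4% in the pair labelled CD45+, with log2 ratios of 0.02 (-0.43 to 0.45) and 0.12 (-0.40 to 0.61). Both of these intervals included 0, so the lower share was not seen relative to dendritic cells and neutrophils.

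The reporter followed the sort in the rule-chosen cells, but weakly in most Ccr2+ cells. tdTomato stood at 574, 32.4, 410 and 36.3 CPM in the rule-chosen cells, against 680, 18.5, 664 and 18.4 in macrophages. Both Tom+ libraries were more than 10-fold above both Tom- libraries, and both were below the macrophages of the same library. In Ccr2+ cells tdTomato stood at 354, 34.0, 295 and 37.4 CPM, and in Ccr2- Adgre4+ cells at 725, 26.6, 680 and 39.7 CPM. The Ccr2- Adgre4+ cells of the Tom+ libraries thus carried the reporter at about the macrophage level, and the Ccr2+ cells at less (log2 ratio of Ccr2+ to Ccr2- Adgre4+ cells -1.04 and -1.21 in the 2 Tom+ libraries).

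Counted per cell, the median Ccr2+ cell of each Tom+ library held 1 tdTomato UMI, and the median Ccr2- Adgre4+ cell 11 in the CD45- Tom+ and 12.5 in the CD45+ Tom+ library, with median depths of 17448 and 21950 UMIs in the CD45- Tom+ library and 15731 and 20645 in the CD45+ Tom+ library. In the CD45- Tom+ library 9 of 33 Ccr2+ cells and 12 of 22 Ccr2- Adgre4+ cells had 5 or more tdTomato UMIs, and in the CD45+ Tom+ library 5 of 31 and 5 of 8. In the Tom- libraries 0 of 179 and 1 of 193 rule-chosen cells reached 5 UMIs, so this level separated the sorts. Most Ccr2+ cells of the Tom+ libraries lay below it, while 68.9% of all kept barcodes of the CD45- Tom+ library and 66.8% of those of the CD45+ Tom+ library lay at or above it. After every cell was thinned to 2000 UMIs, a tdTomato UMI was left in 27.3% and 29.0% of Ccr2+ cells and in 63.6% and 75% of Ccr2- Adgre4+ cells of the Tom+ libraries. The same share in the Tom- libraries was 6.72% and 7.33% for Ccr2+ cells, 2.63% and 16.2% for the 38 and 37 Ccr2- Adgre4+ cells, and in Tom- progenitors 1.78% and 1.92%. Among barcodes with 5 or more tdTomato UMIs, rule-chosen cells were 25 of 2857 (0.875%) in the CD45- Tom+ and 12 of 1324 (0.906%) in the CD45+ Tom+ library.

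**Figure D2:**
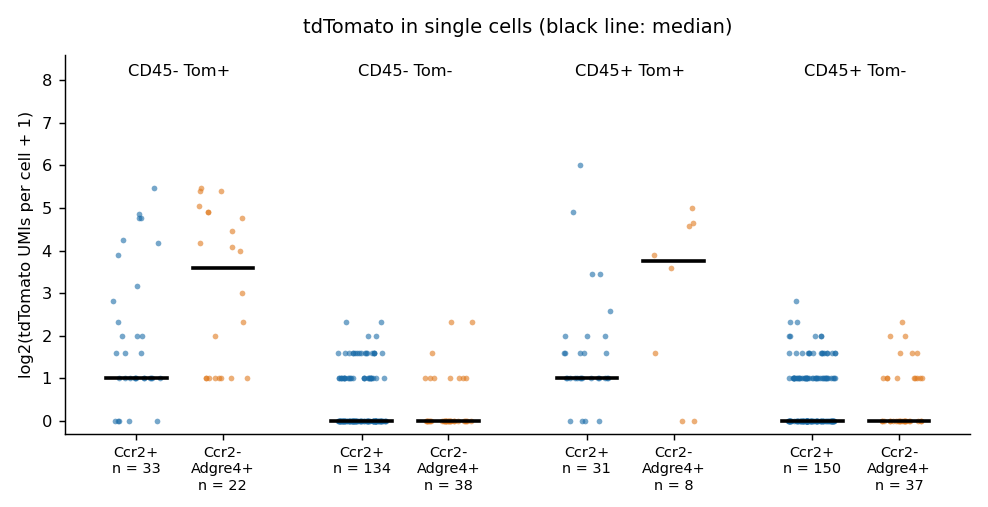
tdTomato UMIs per cell, as log2 of the UMI count plus 1, in Ccr2+ and Ccr2- Adgre4+ cells of each library. Each point is 1 cell and black lines are medians. In both Tom+ libraries the median Ccr2+ cell sits at 1 UMI and the median Ccr2- Adgre4+ cell at 11 and 12.5 UMIs, and nearly all cells of the Tom- libraries sit below 5 UMIs.

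Cdkn2a, the gene that encodes p16, was near the limit of detection in the rule-chosen cells. It gave 2, 4, 0 and 6 UMIs in the 4 libraries, or 1.71, 1.35, 0 and 1.68 CPM, and the count of 0 in the CD45+ Tom+ library allows up to 4.17 CPM (3 UMIs). In the CD45+ Tom- library 5 of the 6 UMIs came from 1 Ccr2- Adgre4+ cell. Macrophages were at 6.48, 7.57, 7.77 and 6.36 CPM and progenitors at 16.5, 8.32, 20.3 and 9.94. At this depth no difference in Cdkn2a between the sorts was detectable in the rule-chosen cells. Cdkn1a, which encodes the cell cycle inhibitor p21, was at 328, 329, 391 and 335 CPM, a range of less than 1.5-fold.

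Of the rule-chosen cells, 348 were Ccr2+ (33, 134, 31 and 150), 105 were Ccr2- Adgre4+ (22, 38, 8 and 37) and 19 were neither. Ccr2- Adgre4+ cells were 37.3% (25.04 to 50.9) of the rule-chosen cells in the CD45- Tom+ library and 21.2%, 19.5% and 19.2% in the other libraries. The log2 ratio of this share, Tom+ to Tom-, was 0.81 (-0.02 to 1.61) for the libraries labelled CD45- and 0.03 (-1.29 to 1.15) for those labelled CD45+, so neither interval excludes an equal share, and neither excludes a 2-fold higher one. Over all libraries the subsets had nearly the same depth, with medians of 16171 UMIs in Ccr2+ and 16232 in Ccr2- Adgre4+ cells. A single Ccr2 UMI placed 33 cells in the Ccr2+ subset. With every cell thinned to 2000 UMIs, Ccr2- Adgre4+ cells were 16.9%, 10.6%, 12.2% and 14.0% of the rule-chosen cells.

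Because Ccr2 and Adgre4 set the subsets, the genes between them are described without a test. A gene counted as higher where its CPM differed more than 2-fold, with the counting interval of the log2 ratio excluding 0, in each of the 3 libraries with at least 10 cells in both subsets. The CD45+ Tom+ library, with 8 Ccr2- Adgre4+ cells, was not used for this count. Of 2692 genes whose mean reached 50 CPM, 17 (0.632%) were higher in Ccr2+ cells and 47 (1.75%) in Ccr2- Adgre4+ cells.

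Some genes of classical monocytes were higher in Ccr2+ cells. Ly6c2 stood at 163 CPM in Ccr2+ and 50.2 in Ccr2- Adgre4+ cells of the CD45- Tom+ library, at 242 and 4.70 in CD45- Tom-, at 295 and 19.4 in CD45+ Tom+ and at 330.4 and 33.4 in CD45+ Tom-. Vcan, which encodes the matrix proteoglycan versican, stood in the same order at 88.0 and 24.0, 117 and 25.04, 191 and 25.9, and 138 and 33.4 CPM. Both were higher in Ccr2+ cells in each of the 4 libraries, with log2 ratios of 1.70 to 5.69 for Ly6c2 and 1.87 to 2.89 for Vcan. Plac8 (411 and 89.5, 779 and 241, 602 and 97.2, 853 and 379.8 CPM) and Thbs1 (1146 and 415, 1580.1 and 368, 1323 and 628, 1314 and 626 CPM) followed. Emb, which encodes the cell surface glycoprotein embigin, completed the 5 genes that counted as higher among 13 measured of the 20 on the classical monocyte list, and none counted as lower. The median log2 ratio of that list was only 0.07, 0.41 and 0.26 in the 3 libraries, beside 0.01, -0.03 and 0.03 for all genes measured. Summed over its 20 genes, the list was higher in the Ccr2- Adgre4+ cells of each library (12618, 15158, 17549 and 17689 CPM) than in the Ccr2+ cells (9492, 13126, 12440 and 12712 CPM). Hp, the haptoglobin gene, which is on that list, was higher in neither subset (log2 -0.74, 0.39 and -0.30).

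Antigen presentation genes were another group higher in Ccr2+ cells. H2-Ab1, a chain of the MHC class II molecule that presents peptides to CD4 T cells, stood at 3522 and 594 CPM in CD45- Tom+, 2327 and 1006 in CD45- Tom-, 1991 and 1386 in CD45+ Tom+ and 2155 and 588 in CD45+ Tom-. H2-DMa (log2 2.18, 1.64 and 1.79 in the 3 libraries) and H2-DMb1 (2.66, 1.69 and 2.12), which load peptide onto class II, were higher as well. Thus 3 of 6 measured MHC class II genes counted as higher, and the list median was 2.63, 1.08 and 1.65. Cd209a, a C-type lectin, was measured mostly in Ccr2+ cells, at 169.5, 73.5, 72.3 and 60.4 CPM, against 0, 0, 12.96 and 1.59 in Ccr2- Adgre4+ cells. It was found in only 11.9%, 7.82%, 9.76% and 6.22% of the rule-chosen cells, and a single cell held 49.0% and 43.6% of its UMIs in the 2 Tom+ libraries. Mgl2, another lectin, was 2.50, 2.69 and 4.16 log2 units higher in Ccr2+ cells of the 3 libraries but lower by 2.49 in the CD45+ Tom+ library. These genes are shared with dendritic cells, in which H2-Ab1 stood at 7534 to 7997 CPM, and whether dendritic cells within the rule contribute was not tested beyond the count of 45 of 348 Ccr2+ cells (12.9%) that held dendritic genes.

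The Ccr2- Adgre4+ cells carried the macrophage and lipid genes. Saa3, an acute-phase serum amyloid protein, stood at 2974 CPM in Ccr2- Adgre4+ and 40.8 in Ccr2+ cells of the CD45- Tom+ library, 786 and 138 in CD45- Tom-, 641 and 19.5 in CD45+ Tom+, and 477 and 44.6 in CD45+ Tom-. Slpi, a secreted inhibitor of leukocyte proteases, stood at 4105 and 129, 1138 and 255, 1846 and 162, and 2862 and 166 CPM. Slc7a2, a carrier of the arginase substrate arginine, stood at 729 and 166, 473 and 107, 1425 and 95.7, and 669 and 93.1 CPM. These 3 genes were named for their large ratios between these same subsets, so the gap in their levels follows in part from that choice. Arg1 itself followed, with 4054 and 1423, 5392 and 2405, 8000.3 and 1588, and 6194 and 2122 CPM.

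Of 16 measured genes on the macrophage list of 24, 6 counted as higher in Ccr2- Adgre4+ cells and none in Ccr2+ cells, with list medians of -1.51, -1.18 and -0.93 (log2, Ccr2+ to Ccr2- Adgre4+). These were C1qc, Spp1, Fabp5, Lpl, Marco and Arg1. C1qc stood at 1766 and 269, 903 and 235, 1386 and 315, and 855 and 372 CPM in Ccr2- Adgre4+ and Ccr2+ cells, below the 1803 to 2085 CPM of macrophages. Spp1, which encodes osteopontin, stood at 6119.9 and 329, 2929.9 and 625, 4120.0 and 1182, and 3879 and 1024 CPM. A single cell held 55.9% of the Spp1 UMIs of the Ccr2- Adgre4+ cells of CD45- Tom+, and without it their level was 2850.5 CPM. Marco, a scavenger receptor, rested on single cells, since 1 cell held 97.6% and 97.3% of its UMIs among all rule-chosen cells of the CD45- Tom+ and CD45- Tom- libraries. Of 18 measured lipid handling genes, 6 counted as higher in Ccr2- Adgre4+ cells: Fabp5, Lpl, Abca1, Msr1, Olr1 and Ctsd. Ctsd, the lysosomal protease cathepsin D, stood at 5578 and 758, 2900.2 and 960.2, 6135 and 912, and 3374 and 1049.6 CPM.

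The Ccr2- Adgre4+ cells did not stand out in non-classical monocyte genes. Of 13 measured genes on that list of 22, 0 counted as higher in either subset, and its median log2 ratio was -0.31, -0.14 and -0.20. Nr4a1 stood at 301 CPM in Ccr2- Adgre4+ and 459.7 in Ccr2+ cells of CD45- Tom+, 455 and 507 in CD45- Tom-, 551 and 509.9 in CD45+ Tom+, and 458 and 478 in CD45+ Tom-. Cx3cr1, the fractalkine receptor, stood at 93.9 and 173, 142 and 193, 136 and 135, and 168 and 215 CPM. Neither gene was higher in the Ccr2- Adgre4+ cells by more than counting error in any library. The less abundant Ace and Eno3, genes of non-classical monocytes, leaned to the Ccr2- Adgre4+ side (Ace 48.0 and 32.6, 95.5 and 38.6, 58.3 and 23.4, 68.3 and 33.1 CPM). Eno3 was under the 50 CPM limit. Ace passed 2-fold in every library but CD45- Tom+, where its mean was also under that limit. Neither gene was therefore among the 13 measured. On the remaining lists, 1 of 3 interferon-stimulated genes (Ms4a6b) was higher in Ccr2+ cells, with medians of 0.68, 2.01 and 2.69, as were 1 of 3 dendritic genes (Mgl2) and 1 of 15 chemokine receptor and adhesion genes (Itgb7), while 1 of 19 transcription factors (Tcf7l2) was higher in Ccr2- Adgre4+ cells. In addition, 2 TGF-beta genes (Tgfbi and Thbs1) of 7 measured were higher in Ccr2+ cells, none of 13 glycolysis genes and none of 15 dissociation stress genes counted in either direction, and the TGF-beta ligand Tgfb1 was within 0.12 log2 units of equality in every library.

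**Figure D3:**
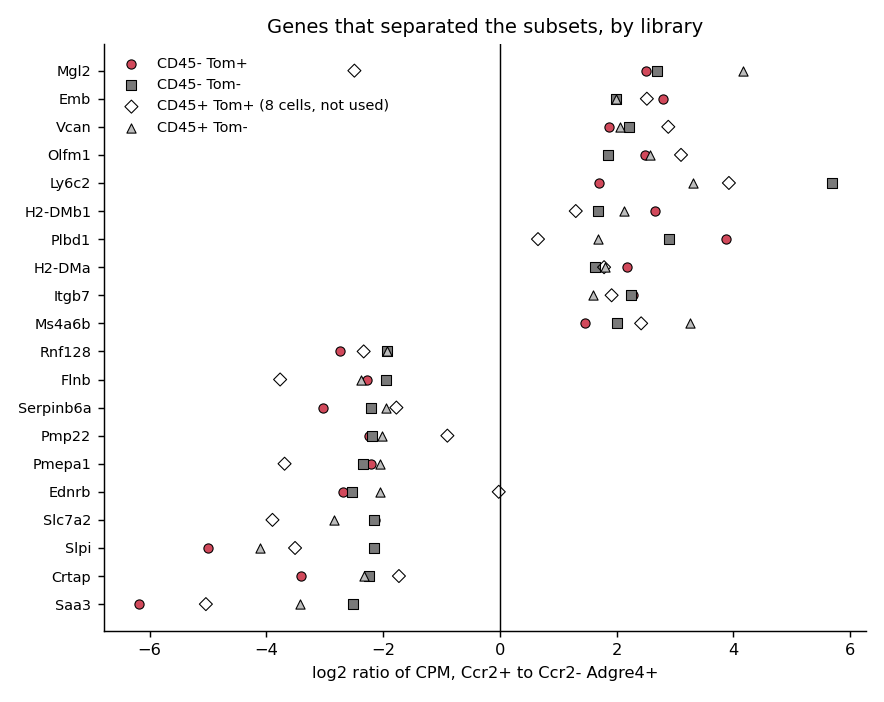
Log2 ratio of CPM, Ccr2+ to Ccr2- Adgre4+ cells, for the 10 named genes on each side (points, 1 per library). Open symbols are the CD45+ Tom+ library, with 8 Ccr2- Adgre4+ cells, which was not used to choose the genes. Filled points lie beyond 1 or -1 for every gene, and Mgl2 is the gene whose open point falls on the opposite side.

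Cell by cell, the subsets overlapped. The 24 macrophage genes took a median of 0.763% of UMIs in Ccr2+ cells (quartiles 0.373% and 1.31%) and 1.94% in Ccr2- Adgre4+ cells (0.889% and 2.64%). The 10 MHC class II genes took a median of 0.411% (0.0736% and 1.69%) and 0.0578% (0.0308% and 0.261%). Cells with the C1q genes at 10 UMIs or more were 107 of 348 Ccr2+ (30.7%) and 64 of 105 Ccr2- Adgre4+ cells (61.0%), so the macrophage genes were found in part of both subsets. When all rule-chosen cells with macrophage, dendritic or neutrophil genes were left out, the Ccr2- Adgre4+ cells lost 17 of 22, 28 of 38, 6 of 8 and 22 of 37. Only the Tom- libraries still had at least 10 cells in both subsets, so the next counts rest on them alone. There 8 of the 17 and 7 of the 47 genes still counted as higher, and Saa3, Slpi, C1qc, Abca1 and Pf4 changed sign in at least 1 library. C1qc was itself among the genes used to leave cells out.

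**Figure D4:**
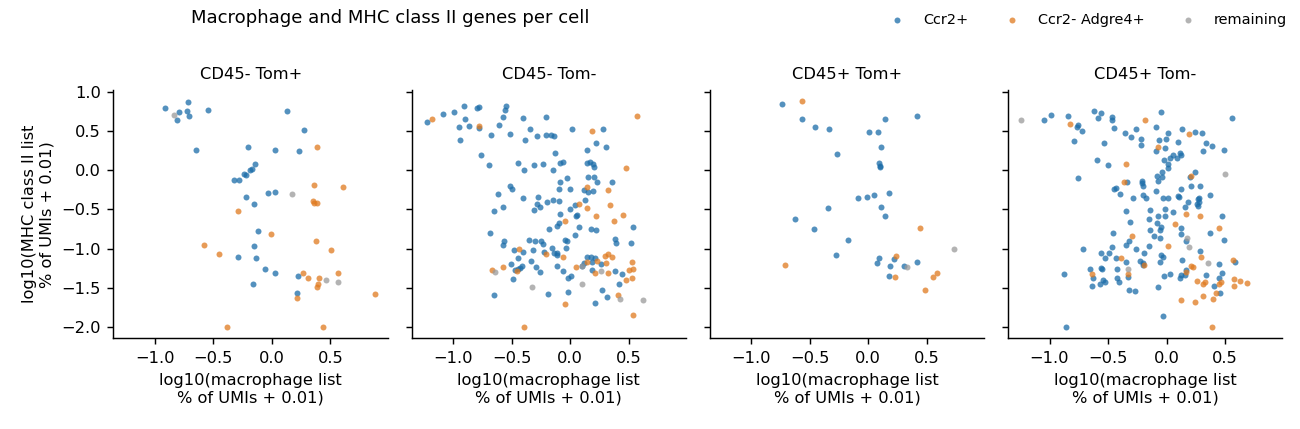
Percent of a cell's UMIs from the 24 macrophage genes (x axis) and from the 10 MHC class II genes (y axis), both as log10 of the percent plus 0.01, 1 panel per library. Each point is 1 rule-chosen cell, coloured by subset. Ccr2- Adgre4+ cells lie further right and lower (medians 1.94% and 0.0578%) than Ccr2+ cells (0.763% and 0.411%), with overlap in every panel.

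Between Tom+ and Tom- libraries few genes differed in both pairs. Of 3016 genes measured in the pair labelled CD45-, 36 (1.19%) were more than 2-fold higher in Tom+ rule-chosen cells and 9 (0.298%) lower, with the counting interval excluding 0. Of 3033 genes in the pair labelled CD45+, 20 (0.659%) were higher and 22 (0.725%) lower. Of 2860 genes measured in both pairs, 6 (0.21%) were higher in both (Ccl4, Slc7a2, Txndc5, Ednrb, Itga6 and Apold1) and 4 (0.14%) lower in both (S100a8, S100a9, Col3a1 and Dcn). No gene was called in opposite directions.

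A test over the 4 libraries, edgeR's quasi-likelihood test with Benjamini-Hochberg adjustment, was added after the data were seen. With the CD45 label as a term, which leaves 1 residual degree of freedom, 43 of 2860 genes (1.5%) were higher and 19 (0.664%) lower in Tom+ at an adjusted p under 0.05. All 10 of the genes above, which were picked on these same libraries, passed, with adjusted p from 9.4e-07 (S100a8) to 0.0016 (S100a9). These p-values measure the spread between the 4 libraries only. Without that term 27 were higher and 12 lower, and S100a8 (adjusted p = 0.053) and S100a9 (0.24) no longer passed. With 1 library left out the counts ran from 6 to 196 higher and from 3 to 133 lower, so the number of genes rested on single libraries. Of the 10 genes, Ccl4, Slc7a2, Itga6, S100a8, Col3a1 and Dcn passed in the smallest of these sets, in which the CD45+ Tom- library was left out.

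Ccl4, a chemokine that attracts monocytes and T cells, stood at 343 CPM in CD45- Tom+ against 99.3 in CD45- Tom-, and at 505 in CD45+ Tom+ against 82.9 in CD45+ Tom-. The log2 ratios were 1.79 (1.57 to 2.01) and 2.61 (2.38 to 2.83), and 1.77 and 1.58 in Ccr2+ cells alone. A single cell held 65.3% of the Ccl4 UMIs in the CD45+ Tom+ library and 25.9% in the CD45- Tom+ library, yet Ccl4 was still called in both pairs without the top cell of each library. Its log2 ratio in macrophages of the same libraries was 0.57 and 0.75. When cells with macrophage, dendritic or neutrophil genes were left out, which left 19, 91, 17 and 95 cells, the Ccl4 ratio turned to -2.63 and -0.14.

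Slc7a2 stood at 475 against 192 CPM and at 562 against 229.5, with log2 ratios of 1.31 (1.13 to 1.48) and 1.29 (1.12 to 1.46). Within Ccr2+ cells the ratios were 0.64 and 0.04. Itga6, the integrin alpha 6 chain, stood at 184 against 73.3 and 181 against 81.0 CPM (log2 1.33 and 1.16), and within Ccr2+ cells its ratios were 0.40 and -0.34. Both genes were also among those higher in Ccr2- Adgre4+ cells. With both libraries of a pair set to the same mix of subsets, 3 of the 6 genes were still called in both pairs (Ccl4, Txndc5 and Apold1), and Slc7a2, Ednrb and Itga6 were not.

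Txndc5, a protein disulfide isomerase of the endoplasmic reticulum, stood at 180.0 against 76.7 and 159.9 against 68.4 CPM. It moved with immunoglobulin RNA. Igkc, the immunoglobulin kappa constant gene, stood at 15441, 1107, 12093 and 851 CPM in the rule-chosen cells. Immunoglobulin and Jchain UMIs were 3.04%, 0.396%, 2.23% and 0.175% of all UMIs of these cells. Macrophages showed the same direction, with log2 ratios for Txndc5 of 1.29 and 1.34. Whether RNA from B cells or plasma cells set the Txndc5 ratio was not tested. Immunoglobulin genes were left out of the genes measured above.

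Apold1, an endothelial early-response gene, stood at 73.3 against 36.1 and 90.4 against 21.8 CPM, with 51.2% and 55.4% of its Tom+ UMIs in 1 cell per library. Ednrb, the endothelin receptor B, stood at 111 against 47.6 and 117 against 42.4 CPM, with 27.7% and 44.0% in 1 cell. Without the top cell of each library only Ccl4 and Slc7a2 of the 6 genes were still called in both pairs.

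Genes of neutrophils and of stroma were lower in Tom+. S100a8, an alarmin abundant in neutrophils, stood at 155 against 963 CPM and at 36.1 against 385 (log2 -2.63 and -3.41). S100a9, its partner, stood at 217 against 936 CPM and at 1.39 (a single UMI) against 307. In the Tom- libraries 1 cell each held 48.4% and 45.2% of the S100a8 UMIs, and in CD45- Tom+ 1 cell held 67.6%. The 14 neutrophil genes together held 587, 2708, 240.5 and 933 CPM, with Retnlg and Ly6g at 0 in both Tom+ libraries. Neutrophils were also a larger share of the Tom- libraries, as given above, and without doublets marked by Scrublet the log2 ratio of S100a8 was -2.32 and -0.45 in the 2 pairs and that of S100a9 -1.79 and -2.93, of which those in the pair labelled CD45+ were no longer called. Without cells holding genes of other myeloid types they were -1.22 and -0.55 for S100a8 and -0.35 and -0.42 for S100a9, none of them called. The part of neutrophil RNA in this difference was not tested otherwise.

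Col3a1, a collagen chain of fibroblasts, stood at 22.2 against 90.8 and 22.2 against 90.5 CPM, and Dcn, the fibroblast proteoglycan decorin, at 31.6 against 119.9 and 15.3 against 114. The ratios were as low within Ccr2+ cells (-2.18 and -1.93 for Col3a1, -1.67 and -3.23 for Dcn). No cell held more than 27.3% of the UMIs of either gene in any library. The 15 stromal and mesothelial genes held 426, 778, 438 and 679 CPM in the rule-chosen cells, while progenitors were 7.45%, 40.5%, 7.98% and 36.7% of the same libraries. Whether free RNA of progenitors set these levels was not tested.

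**Figure D5:**
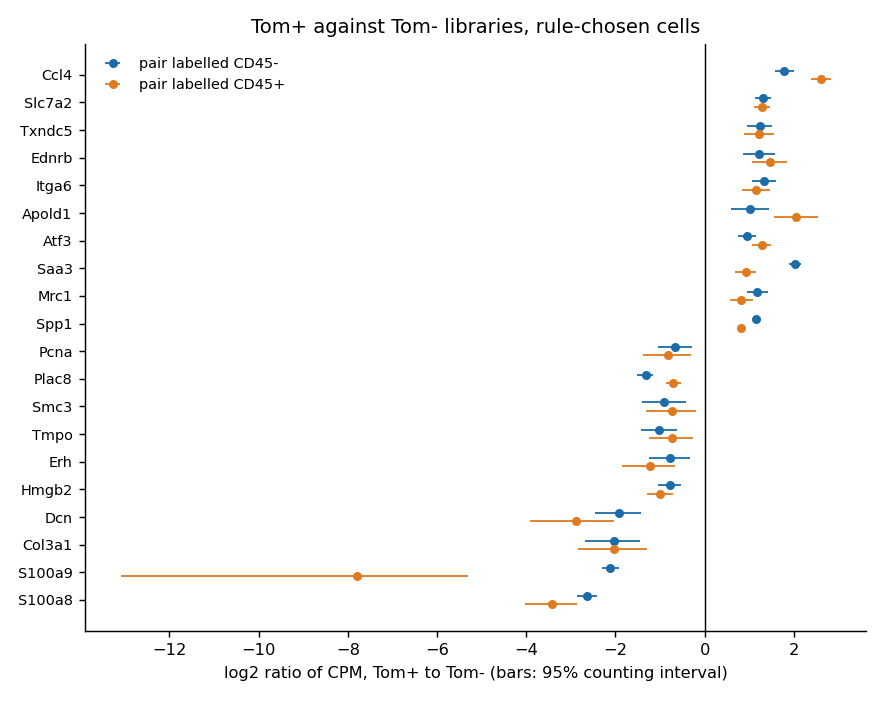
Log2 ratio of CPM, Tom+ to Tom-, in rule-chosen cells for the 10 named genes in each direction, in the pair labelled CD45- and in the pair labelled CD45+ (points, with 95% intervals for counting error). Ccl4 has the largest ratios among the genes higher in Tom+ in the pair labelled CD45+ (2.61), and S100a9, with 1 UMI in the CD45+ Tom+ library, has the widest interval.

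The other named genes passed 2-fold in 1 pair or in neither. Saa3 stood at 1185 against 291 CPM in the pair labelled CD45- (log2 2.02) and 275 against 146 in the pair labelled CD45+ (0.92), but within Ccr2+ cells it was lower in Tom+ (-1.76 and -1.19). Spp1 behaved alike, at 2939.9 against 1315 and 2722 against 1539 CPM over all rule-chosen cells, with ratios of -0.92 and 0.21 within Ccr2+ cells. A single cell held 45.4% of the Spp1 UMIs of the CD45- Tom+ library, and the ratio of that pair, 1.16, was 0.51 without the top cell of each library and 0.53 at the same mix of subsets, no longer called in either case. Mrc1, the mannose receptor of tissue macrophages, stood at 235 against 104 and 238 against 134 CPM, and kept its sign within Ccr2+ cells (0.88 and 1.05). Atf3, a stress-induced transcription factor, stood at 312 against 161 and 369.8 against 153 CPM, with log2 ratios of 0.95 and 1.28. On the lower side, Plac8 stood at 252 against 633 and 449 against 729 CPM (log2 -1.33 and -0.70). Hmgb2, Tmpo, Smc3 and Pcna, genes of chromatin and DNA replication, had log2 ratios between -0.66 and -1.01 in both pairs, and of these only Tmpo in the pair labelled CD45- passed 2-fold. The RNA-associated protein gene Erh had ratios of -0.77 and -1.22.

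By lists, macrophage genes leaned to Tom+ most clearly where the CD45 label was negative. In the pair labelled CD45- 5 of 18 measured macrophage genes were higher in Tom+ and none lower, with a median log2 ratio of 0.73 beside -0.05 for all genes. In the pair labelled CD45+ 1 of 16 was higher (Vsig4, with 79.2% of its Tom+ UMIs in 1 cell), with a median of 0.27 beside -0.03. Within Ccr2+ cells the medians were -0.14 and -0.20, so the lean was not seen there. The neutrophil list had 4 of 5 genes lower in the pair labelled CD45- and 2 of 3 in the pair labelled CD45+. Inflammatory cytokines and chemokines had 1 of 19 genes higher in the pair labelled CD45- and 4 of 21 higher (Ccl3, Ccl4, Ccl7 and Tnf) with 1 lower (Ccl5) in the pair labelled CD45+, with medians of 0.05 and 0.29.

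The monocyte lists had few calls. The classical list had 1 of 13 genes lower (Plac8) in the pair labelled CD45- and 0 of 14 in the pair labelled CD45+, with medians of -0.15 and 0.00, and of -0.43 and -0.07 within Ccr2+ cells. The non-classical list had 0 of 15 genes called in the pair labelled CD45-, and 1 higher (Fabp4) and 1 lower (Ear2) of 15 in the pair labelled CD45+, and within Ccr2+ cells 1 higher and 2 lower of 14 in the pair labelled CD45- and 1 higher and 1 lower of 14 in the pair labelled CD45+. A single cell held 91.5% of the Fabp4 UMIs of the CD45+ Tom+ library, and without it the ratio was -1.54 in place of 1.56. The 18 myeloid core genes, all measured, gave 0 calls in either pair (medians -0.14 and -0.19), as did the MHC class II (0.14 and -0.03), TGF-beta (-0.16 and 0.06), glycolysis (-0.16 and -0.10) and cell cycle lists (-0.50 and -0.60). Tgfb1 stood at 288 against 297 and 250.3 against 309.6 CPM.

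The remaining lists gave few calls. Lipid handling had 1 of 18 genes higher in each pair (Hmox1, then Fabp4), Fc, complement and pattern receptors 2 of 13 in the pair labelled CD45- (Fcgr4 and C1qa) and 0 of 13 in the other, and myeloid transcription factors 0 of 19 and 2 of 19 (Egr1 and Atf3). Dendritic genes had 1 of 5 higher (Clec10a) in the pair labelled CD45- and 1 of 6 lower (Ccr7) in the pair labelled CD45+. Interferon-stimulated genes had 1 of 5 higher (Gbp2) in the pair labelled CD45-, and in the pair labelled CD45+ 1 of 16 chemokine receptor and adhesion genes (Itgb7) and 1 of 10 MHC class I genes (Psmb9) were lower. Of 15 dissociation stress genes, 0 were called in the pair labelled CD45- and 2 were higher in the pair labelled CD45+. No gene of the T and NK cell list reached 50 CPM.

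Within Ccr2+ cells alone (33 against 134 and 31 against 150), 9 of 2769 genes (0.325%) were higher and 6 (0.217%) lower in Tom+ in both pairs. As given above, only 9 of 33 and 5 of 31 of these Tom+ cells had 5 or more tdTomato UMIs, and whether the others were Tom+ when sorted cannot be told from the counts. The higher genes were Ccl4, Ccl7, Atf3, Egr1, Apold1, Timp3, Cldn5, Fabp4 and Mzb1. Egr1, an immediate early gene, stood at 406 against 177 and 381 against 131 CPM, and Ccl7, a Ccr2 ligand, at 142 against 54.5 and 148 against 36.7. Cldn5, the tight junction protein of endothelium, stood at 163 against 28.6 and 107 against 7.91 CPM, and Mzb1, a plasma cell gene, at 92.9 against 9.53 and 97.7 against 6.83. Among all rule-chosen cells, 1 cell each held 46.5% and 52.7% of the Cldn5 UMIs in the Tom+ libraries and 53.6% and 70.3% of those of Timp3, so the endothelial genes rested on very few cells. The 6 lower genes were S100a8, S100a9, Col3a1, Dcn, Ccl24 and Ear2, and Ccl24, an eotaxin, stood at 16.3 against 118 and 17.6 against 86.6 CPM. The dissociation stress list, to which Atf3 and Egr1 belong, had 2 and 3 of 15 genes higher in Ccr2+ cells, with medians of 0.17 and 0.34.

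Since many cells of the Tom+ libraries held few reporter UMIs, the Tom contrast was repeated by reporter level, an alternative chosen after the data were seen. With the Tom+ cells limited to the 25 and 12 cells with at least 5 tdTomato UMIs, 37 genes were higher and 12 lower in both pairs, including 5 of the 6 and all 4 of the genes above. With the cells under 5 UMIs, 3 were higher, of which only Ccl4 was among the 6, and 7 lower, again with all 4. Slc7a2 had log2 ratios of 1.64 and 2.54 in the 2 pairs with the reporter-rich cells, against 0.81 and -0.98 with the others. Itga6 had ratios of 1.85 and 2.43 against 0.40 and -1.30. C1qc had ratios of 1.48 and 1.40 against 0.56 and -1.27, and Saa3 of 2.78 and 2.12 against 0.01 and -1.10. In each of these 4 genes the cells rich in the reporter had the higher ratio in both pairs. Ccl4 went the other way, at 1.48 and 0.36 with the reporter-rich cells and at 2.07 and 3.15 with the others, whereas S100a8, S100a9, Col3a1 and Dcn were lower in Tom+ on either side of the reporter limit. The split by reporter was also a split by subset, since Ccr2- Adgre4+ cells were 12 of the 25 reporter-rich and 10 of the 34 other cells in CD45- Tom+, and 5 of 12 and 3 of 29 in CD45+ Tom+, and all 4 genes were higher in Ccr2- Adgre4+ cells. These groups of cells were small, and their difference was not tested.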

How the data were processed

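The authors deposited 1 matrix of raw UMI counts per library, made with Cell Ranger 3.0.2 on mm10 per the submitters' processing notes, from 10x Genomics 3' libraries. Genes are named as in the deposited files, and positions are from GENCODE vM21 (mm10), in which 30934 of 31054 were found.

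From these counts barcodes were kept, cells chosen by the rule, and counts summed over the chosen cells of each library and scaled to CPM, with no test within a pair, since each sort has 1 library. Other cells were classed by transcripts too, dendritic cells by at least 2 UMIs of Flt3, Xcr1, Clec9a, Cd209a and Ccr7 and 5 of H2-Ab1, and neutrophils by at least 20 UMIs of S100a8 and S100a9 and 2 of Retnlg, Mmp9, Cxcr2 and Csf3r, both with under 10 C1q UMIs. Log2 ratios carry exact conditional intervals, levels exact Poisson intervals and shares Clopper-Pearson intervals, all at 95%. Genes whose mean reached 50 CPM were measured, leaving out the genes of the rule, tdTomato, Xist and immunoglobulin genes, and a gene was called past 2-fold with the interval excluding 0. The calls were also run on simulated Poisson counts with 200 genes changed 4-fold, the outcome of which is not given here. edgeR 4.0.16 in R 4.3.3 (TMM, quasi-likelihood, Benjamini-Hochberg) tested Tom over the 4 libraries on the deposited counts summed per library. On simulated data its fit with the CD45 label called all 200 genes changed 4-fold and 7 unchanged ones, and without the label all 200 and 21 unchanged ones. The simulation gave every gene the same dispersion, with no CD45 difference and no UMIs gathered in single cells. It therefore does not give the error rate of the adjusted p-values in these data. Thinning drew 2000 UMIs per barcode with a fixed seed. No doublets were removed from the main values, and Scrublet in scanpy 1.11.5 (0.8% per 1000 barcodes) served as an alternative. Python 3.11.15, numpy 2.4.6, scipy 1.17.1, pandas 2.3.3 and matplotlib 3.10.9 were used.

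Named genes were those of the rule and of 22 gene lists, the 10 in each direction with the largest smaller ratio over both pairs, or over the libraries of the subset comparison, and the 5 highest against macrophages, dendritic cells and neutrophils, without immunoglobulin, mitochondrial, ribosomal, haemoglobin and predicted (Gm or Rik) genes, Xist, tdTomato and, in the ranked sets, the genes of the rule. Genes outside this rule were named after their values were seen. Of 366 genes on the lists, 1 had no row, and some results are not reported here. The cells, lists and rule were chosen with earlier results of these data known. Alternatives were other barcode filters, thresholds, weights and cell sets, and those on the top cell of each gene, on libraries left out, on tdTomato UMIs, on the limits of the rule, on the myeloid base and edgeR were chosen after seeing the data.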

Additional observations from a re-analysis of the deposited data

How the results depend on the processing

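The lower share of kept barcodes in Tom+ kept its direction and an interval without 0 in each alternative run, with log2 ratios of -0.98 and -1.05 without the Ptprc condition and the limits on other cell types. The share of myeloid cells changed sign once macrophages were left out of its base (0.017 and 0.12). The log2 ratio of the Ccr2- Adgre4+ share in the pair labelled CD45- excluded 0 with the loose barcode filter (0.79) and at 6 or more UMIs (1.18). In the pair labelled CD45+ it was -0.10 with the loose filter, -0.00804 without Scrublet doublets, -0.42 without cells holding genes of other myeloid types and -0.20 after thinning.

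Counts of called genes moved with the limits. Higher and lower in Tom+, they were 185 and 118 at 10 CPM, 20 and 3 at 100 CPM and 99 and 57 at 1.5-fold in the pair labelled CD45-, 163 and 167, 12 and 6, and 89 and 104 in the pair labelled CD45+, and 41 and 23 at 10 CPM, 2 lower at 100 CPM, and 23 and 14 at 1.5-fold in both pairs. In the pair labelled CD45- 17 were lower at 6 UMIs, 14 with equal weight per cell and 39 without cells holding other myeloid genes, and 18 were higher with 1 mix of subsets. Without those cells 57 were higher and 48 lower in the pair labelled CD45+, 13 higher in both pairs and 36 higher in Ccr2+ cells. The last count used the Tom- libraries only. Without doublets 14 were lower in the pair labelled CD45+ and 2 in both. Without the top cell 16, 6 and 2 were higher in the pair labelled CD45-, the pair labelled CD45+ and both. With at least 5 tdTomato UMIs counts were 91 and 32, 147 and 102, and 37 and 12, and with under 5 they were 10 and 21 in the pair labelled CD45-, 44 lower in the pair labelled CD45+, and 3 and 7 in both. Between subsets, 36 and 102 genes were higher in Ccr2+ and in Ccr2- Adgre4+ cells at 10 CPM, 74 and 136 at 1.5-fold, 28 and 31 without the top cell, and 24 to 34 and 65 to 83 with 1 of the 3 libraries left out.

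Of the ratios of single genes recomputed over all alternatives, 762 kept their direction and call, 104 were no longer called and 26 became called. Another 7 changed sign without being called before or after. A further 26 changed sign with a call before or after, and these follow. Signs turned for Apold1 (pair labelled CD45-) at 6 UMIs (-0.11), without doublets (-0.18) and under 5 tdTomato UMIs (-0.086), and for Fabp4 (pair labelled CD45+) at 6 UMIs (-1.49), without the top cell (-1.54) and at 5 or more tdTomato UMIs (-1.54). Without cells holding other myeloid genes they turned for Ccl4 (-2.63), Saa3 (-2.86), Hmox1 (-0.63) and Ccl3 (-1.23) in the pair labelled CD45- and for Ccl4 (-0.14) and Slc7a2 (-1.08) in the pair labelled CD45+. Between subsets, there in the Tom- libraries only, they turned for Saa3 (0.16), Slpi (0.58), C1qc (0.036), Abca1 (0.27) and Pf4 (1.02). Under 5 tdTomato UMIs they turned for Spp1 (-0.99) and Hmox1 (-0.13) in the pair labelled CD45-, and for Slc7a2 (-0.98), Itga6 (-1.30), Saa3 (-1.10), C1qa (-1.20) and C1qc (-1.27) in the pair labelled CD45+. With all 4 libraries Mgl2 (-2.49) and Pf4 (0.52) turned between subsets. Fewer cells widen the intervals in each cell-removing alternative, and the causes were not tested otherwise. In edgeR over the 4 libraries, the paired fit with the CD45 label as a term called 43 genes higher and 19 lower, 27 and 12 without the term, and 6 to 196 and 3 to 133 with 1 library left out, where a lone library is assumed to vary like the others.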

Other observations

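Some genes off the lists, named here after their values were seen, differed between the subsets, and each was also present in progenitors. Gata6, a transcription factor of large peritoneal macrophages and of mesothelium, stood at 61.1, 11.0, 19.4 and 30.2 CPM in Ccr2- Adgre4+ cells and at 1.63, 10.9, 3.91 and 4.67 CPM in Ccr2+ cells, in the library order of the report. Macrophages held 5.67 to 9.22 CPM of Gata6 and progenitors 181 to 299 CPM. Prg4, which encodes lubricin, stood at 127, 87.6, 19.4 and 96.9 CPM against 0, 5.45, 1.95 and 14.7, with 11.6 to 19.5 CPM in macrophages and 53.8 to 78.7 CPM in progenitors. Serpinb2, a member of the serpin family, stood at 100.4, 25.04, 155 and 79.5 CPM against 11.4, 9.98, 1.95 and 7.91, with 4.84 to 13.9 CPM in macrophages and 21.6 to 81.5 CPM in progenitors. Prg4 and Serpinb2 were higher in the Ccr2- Adgre4+ cells of each of the 4 libraries, and Gata6 in 3 of them, being level in CD45- Tom-. These values rested on few cells. A single Ccr2- Adgre4+ cell held 43.1%, 75%, 66.7% and 67.2% of the Prg4 UMIs of that subset. For Serpinb2 the top cell held 34.8%, 75%, 58.3% and 34%, and for Gata6 46.4%, 57.1%, 33.3% and 36.8%. Without its top cell, Serpinb2 in CD45- Tom- stood at 6.53 CPM, below the 9.98 CPM of Ccr2+ cells (7.31 without their top cell). In CD45+ Tom+, with 8 Ccr2- Adgre4+ cells, 19.4 CPM stands for 3 UMIs, and the intervals of the ratios of Gata6 and Prg4 there include 0. The part of RNA from other cells in these values was not tested.

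Lyve1 and Folr2, markers of resident tissue macrophages, stood at 1.95 to 34.97 and 21.6 to 66.5 CPM in the rule-chosen cells, against 49.0 to 191 and 216 to 315 CPM in macrophages.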
